A study of Saccharomyces cerevisiae with 15 samples.

Results

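The genes described here encode subunits of the RNA polymerase II transcription machinery in Saccharomyces cerevisiae. They were taken by symbol, as every probe set of a gene whose name begins with RPB, TAF, TFA, TFB, TFG, MED or SRB followed by a number, with array-control probe sets left out. This gave 45 genes with 1 probe set each, of the 5900 probe sets and 5449 genes on the array. They comprised 9 subunits of RNA polymerase II, 14 of TFIID, 2 of TFIIE, 2 of TFIIF, 6 of TFIIH and 12 of Mediator (6 in the head module, 4 in the middle, 1 in the tail and 1 in the kinase module). Of the 45 genes, 5 lie on chromosome XVI: TAF3, TAF14, TFB2, TFB4 and MED1.

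RNA polymerase II makes all mRNA but cannot find a promoter alone. TFIID, made of the TATA-binding protein and the TAF subunits, marks the promoter, and TFIIE, TFIIF and TFIIH bring in the polymerase and open the DNA, with a TFIIH kinase that phosphorylates the polymerase tail. Mediator carries signals from activators to the polymerase through its tail, middle and head modules, and its kinase module is detachable. Some TAF subunits are shared with the coactivator SAGA, whose deubiquitinase module shares Sus1 with THSC/TREX-2.

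Total RNA from mid-log cultures in YPD was hybridised to Affymetrix arrays, with 3 arrays for each of 5 strains, 15 in all. The mutants thp1Δ, sac3Δ and sus1Δ each lack 1 gene of THSC/TREX-2, the complex that couples transcription to mRNA export at the nuclear pore. Following the study's methods, thp1Δ and sus1Δ were compared with the wild type BY4742 and sac3Δ with the wild type BY4741. All 5 strains carry his3Δ1, leu2Δ0 and ura3Δ0, to which sac3Δ and BY4741 add met15Δ0, and thp1Δ, sus1Δ and BY4742 add lys2Δ0. Replicates are labelled as biological, but whether they were grown as separate cultures is not stated. Each limma p-value thus reflects only how much the 15 arrays scattered, pooled over the 5 strains, and their small number limits precision. That scatter was unequal. The median SD of log2 values over all genes was 0.155 in BY4741 and 0.114 in sac3Δ. It was 0.0858 in thp1Δ, 0.0534 in BY4742 and 0.0524 in sus1Δ. The limma p-values of sac3Δ therefore rest partly on arrays that scattered less.

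The deleted genes and markers were read first. THP1 lay between 13.7 and 19.9 units in thp1Δ, against 1341 to 1466 in BY4742. SAC3 lay between 15.4 and 16.8 units in sac3Δ, against 1302 to 1593 in BY4741, and SUS1 between 19.0 and 22.8 in sus1Δ, against 763 to 986 in BY4742. MET17, the gene deleted by met15Δ0, read at most 24.5 units in sac3Δ and BY4741, and LYS2 at most 77.2 in thp1Δ, sus1Δ and BY4742. The labels give mating type a for every strain, whereas STE3, the receptor of alpha cells, read 6662 to 9472 units in thp1Δ, sus1Δ and BY4742, against 157 to 564 in sac3Δ and BY4741. STE2, the receptor of a cells, read 189 to 1229 units in thp1Δ, sus1Δ and BY4742, against 9577 to 14786 in sac3Δ and BY4741, so these comparisons stay within the 2 groups of strains that the receptors form. BY4741 replicate 3 stood apart with 862 empty probe sets (14.6%), among them RPB10, TFA2, TFG1, TFB2 and SRB8, which are averaged over 2 arrays in BY4741.

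In thp1Δ 10 of the 45 genes were called, all of them from TFIID, TFIIH and Mediator. TAF1, TAF2, TAF3, TAF14, TFB3, TFB4 and MED1 were higher than in BY4742, by 1.64-fold to 2.19-fold, and the Mediator head genes MED8, MED11 and SRB2 were lower, by 1.51-fold to 1.60-fold. None of the 9 polymerase genes passed the fold minimum. A gene was called at a limma adjusted p under 0.05, a change of at least 1.5-fold and group means more than 100 units apart, after removing genes under 600 units in at least 50% of the 6 arrays compared. Of the 45 genes, 42 were tested, 7 were called higher, against 14.9% of all genes tested, and 3 lower, against 6.17% of all genes. Without the fold minimum, 26 passed the adjusted p, 17 higher and 9 lower, where 61.8% of all genes passed it. These shares of the members lay close to those of all genes. The median log2 fold change over the 45 genes was 0.13, beside 0.05 over all genes. In RNA from whole cultures, fewer cells that express a gene and less of its RNA in each cell cannot be told apart.

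**Figure D1:**
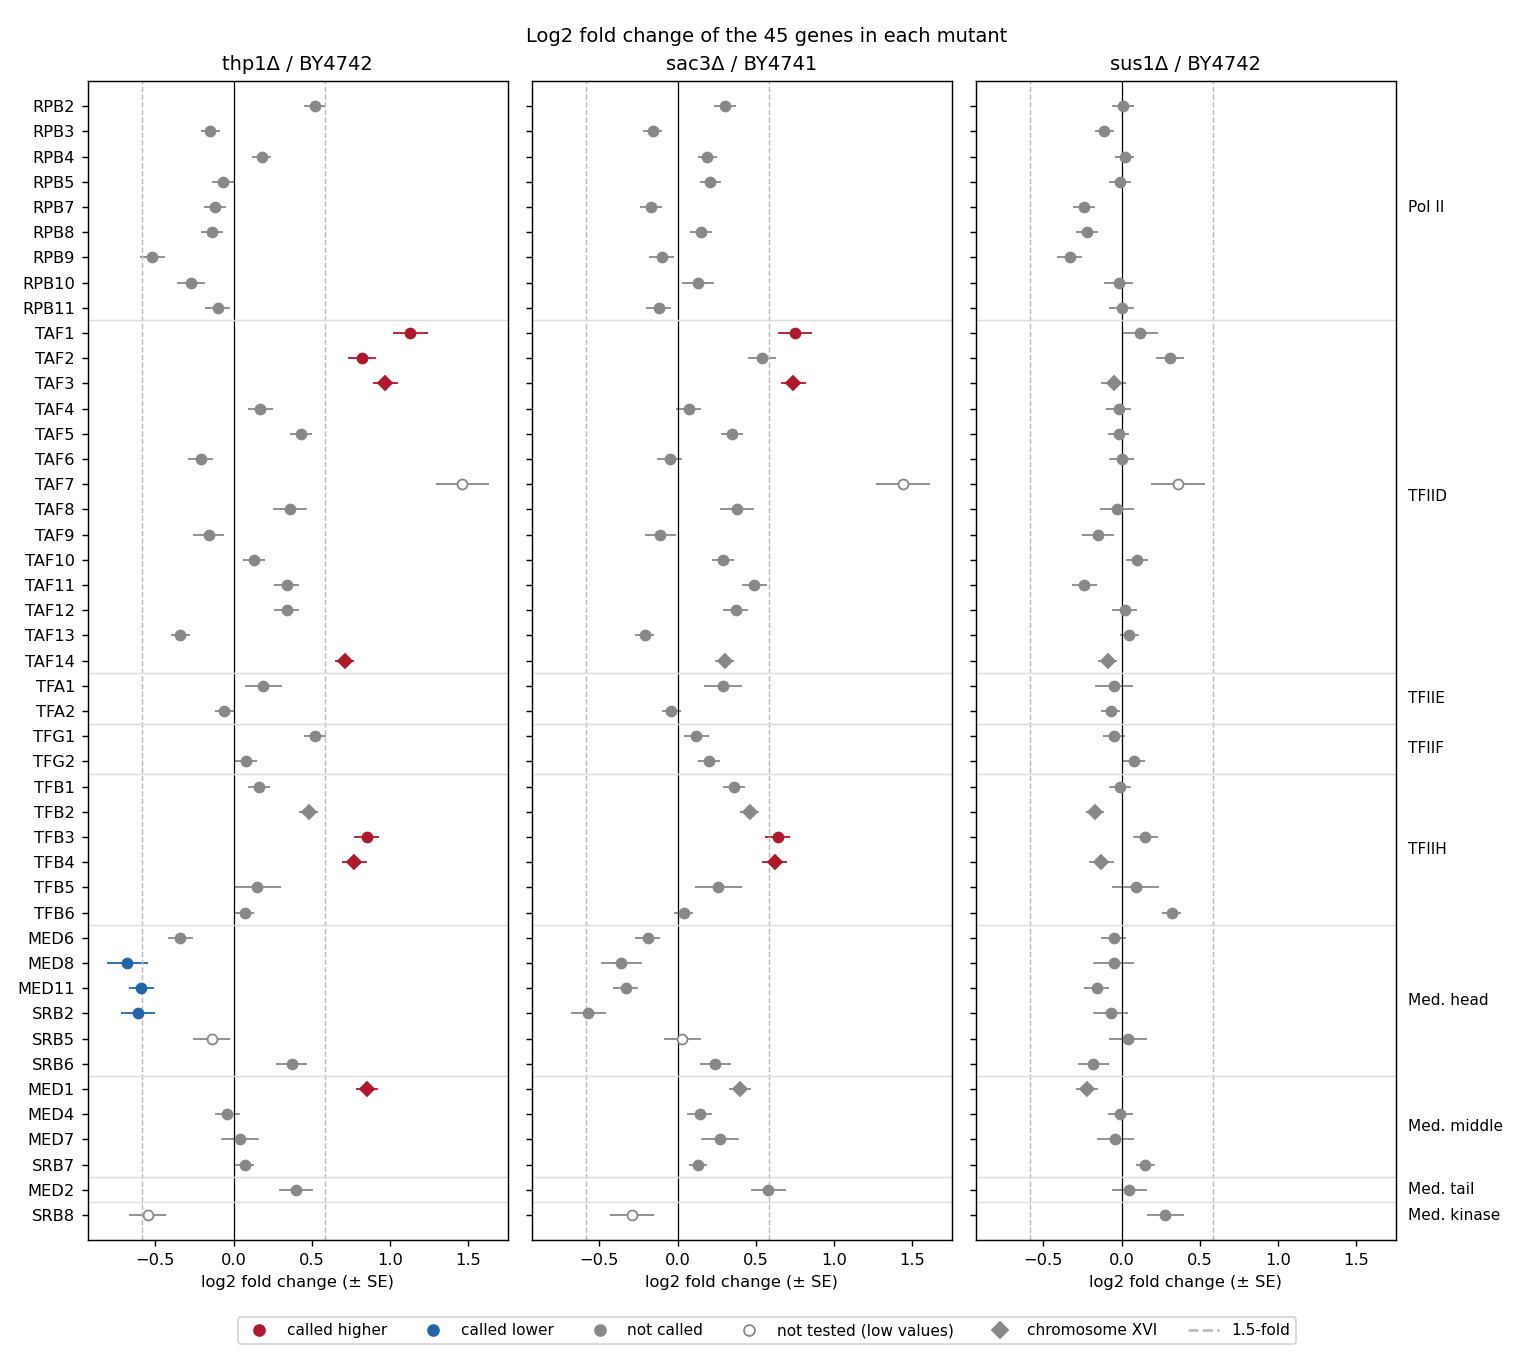
Log2 fold change (± SE of the limma fit, x axis) of the 45 genes, grouped by complex, in thp1Δ and sus1Δ against BY4742 and in sac3Δ against BY4741, 3 arrays per strain. The called genes in thp1Δ are 7 higher and 3 lower, those in sac3Δ are 4 higher, and in sus1Δ every point lies inside the dashed lines at 1.5-fold.

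Among TFIID genes, TAF1, a scaffold subunit of the complex, read 2194, 2446 and 2587 units in thp1Δ, against 1058, 1177 and 1066 in BY4742. Every thp1Δ array was above every BY4742 array, a log2 fold change of 1.13 ± 0.11 (SE, n = 3 arrays per strain, limma adjusted p = 2.4e-06). TAF2, which touches promoter DNA around the start site, read 2158, 2465 and 2849 units in thp1Δ and 1339, 1452 and 1426 in BY4742. These groups did not overlap either, and the log2 fold change was 0.82 ± 0.09 (limma adjusted p = 1.01e-05). TAF3, the histone-fold partner of TAF10, read 1946, 1911 and 1993 units in thp1Δ, against 1041, 1012 and 945 in BY4742. Its log2 fold change was 0.97 ± 0.08 (limma adjusted p = 6.68e-07), the arrays of each strain lying close together. TAF14, which is also a subunit of TFIIF and of chromatin remodelling complexes, read 4574, 4184 and 3993 units in thp1Δ and 2665, 2524 and 2579 in BY4742. All 3 thp1Δ arrays were higher, by 0.71 ± 0.06 on the log2 scale (limma adjusted p = 1.21e-06).

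TAF7, whose product binds Taf1, was not tested, since its BY4742 arrays all fell below 600 units. It read 1154, 1432 and 1427 units in thp1Δ, against 481, 498 and 469 in BY4742, a log2 fold change of 1.46. Without the filter on low values it was higher in thp1Δ with a limma adjusted p of 9.89e-06, in a fit in which 15.3% of all genes were called higher. Over the 14 TAF genes the median log2 fold change in thp1Δ was 0.35. Of the 13 tested, 10 passed an adjusted p of 0.05, 8 higher and 2 lower, where 61.8% of all genes tested passed it. TAF13 was the lowest of the TAF genes at -0.34. Its 3 arrays read 704, 642 and 712 units in thp1Δ against 845, 884 and 879 in BY4742. The TAF genes thus did not move as one block. The 5 TAFs that SAGA also uses (TAF5, TAF6, TAF9, TAF10 and TAF12) had a median of 0.13 in thp1Δ. The 9 others, of which 2 lie on chromosome XVI, had a median of 0.71, and the difference between these sets was not tested.

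**Figure D2:**
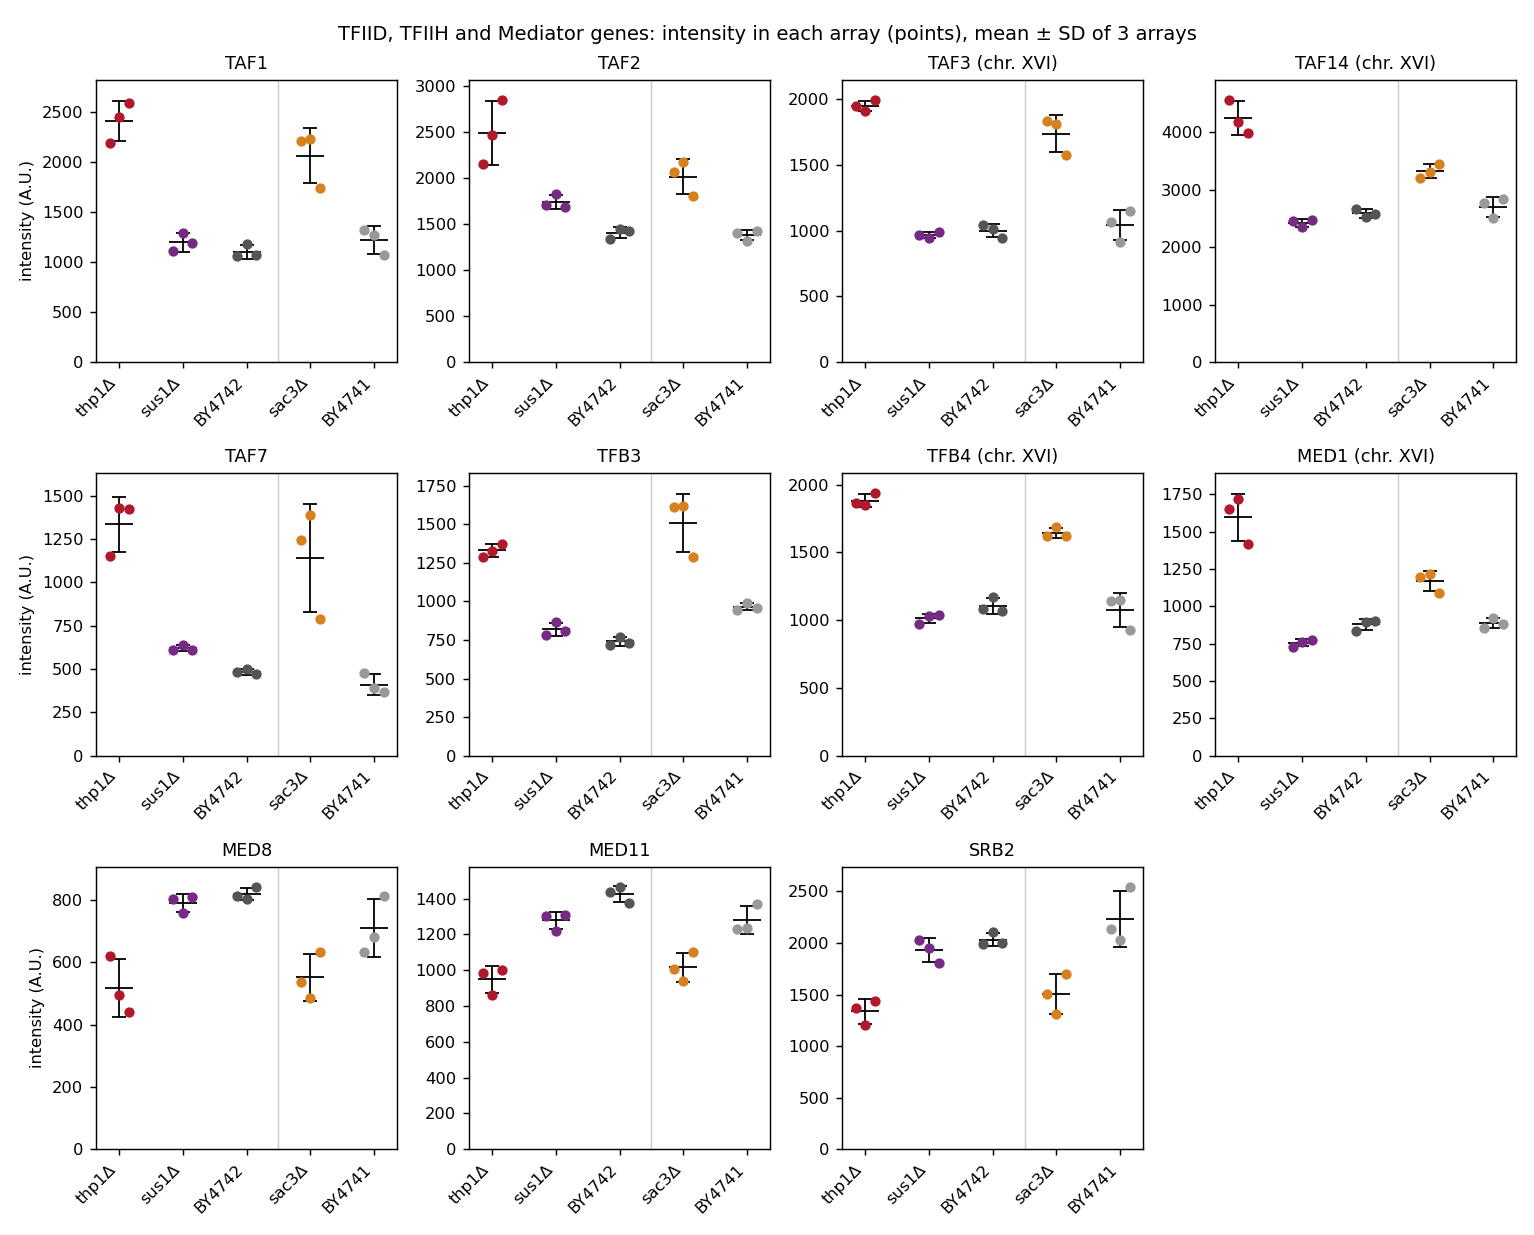
Intensity (arbitrary units, y axis from 0) of the 10 called genes and TAF7 in each array, with the mean ± SD of 3 arrays in black, thp1Δ and sus1Δ beside BY4742 and sac3Δ beside BY4741. The thp1Δ points lie apart from those of BY4742 in all 11 panels, whereas the sus1Δ points reach those of thp1Δ in none of them.

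Of the 6 TFIIH genes, 2 were called higher in thp1Δ, where 14.9% of all genes tested were. TFB3, which ties the kinase module to the core, read 1291, 1327 and 1374 units in thp1Δ, against 720.5, 772 and 729.6 in BY4742. The groups were far apart, with a log2 fold change of 0.85 ± 0.08 (limma adjusted p = 1.88e-06). TFB4, a core subunit, read 1862, 1848 and 1934 units in thp1Δ and 1078, 1168 and 1065 in BY4742, without overlap. Its log2 fold change was 0.77 ± 0.08 (limma adjusted p = 2.76e-06). The core gene TFB2 was higher by 0.48 ± 0.06 (limma adjusted p = 2.16e-05), under the fold minimum, and TFB1, TFB5 and TFB6 had values of 0.16, 0.15 and 0.07 that did not pass. In TFIIF, the large subunit gene TFG1 was higher by 0.52 ± 0.07 (limma adjusted p = 8.29e-05), whereas TFG2 and both TFIIE genes lay between -0.06 and 0.19 and did not pass.

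Mediator genes went in both directions in thp1Δ. The head module contacts the polymerase directly. Of its 6 genes, 5 were tested and 3 were called lower, where 6.17% of all genes tested were. The difference from that share was not tested. MED8 read 622, 495 and 439.8 units in thp1Δ, against 812, 806 and 844 in BY4742, and fell by 0.68 on the log2 scale (SE 0.13, limma adjusted p = 0.000498). MED11 read 984, 861 and 1000.4 units in thp1Δ and 1439, 1465 and 1374 in BY4742. It fell by 0.59 (SE 0.08, limma adjusted p = 2.37e-05), close to the fold minimum. SRB2, whose product is also called Med20, read 1366, 1204 and 1441 units in thp1Δ, against 1989, 2103 and 2000.3 in BY4742, and fell by 0.61 (SE 0.11, limma adjusted p = 0.000272).

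No thp1Δ array of these 3 genes reached the lowest BY4742 array. The other head genes differed among themselves: MED6 was lower by -0.34 and SRB6 higher by 0.37, both past the adjusted p, and SRB5 was not tested, at 581, 484 and 568 units in thp1Δ and 593, 605 and 596 in BY4742. In the middle module MED1 read 1649, 1715 and 1419 units in thp1Δ, against 837, 897 and 904 in BY4742. It was higher by 0.85 ± 0.07 (limma adjusted p = 7.79e-07), while MED4, MED7 and SRB7 lay between -0.04 and 0.07 and did not pass. SRB8 (Med12 of the kinase module) was not tested, and its thp1Δ arrays at 469, 554 and 365 units lay below the BY4742 arrays at 625, 699 and 686.

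The polymerase genes had a median log2 fold change of -0.12 in thp1Δ. Of the 9, 5 passed the adjusted p, 2 higher and 3 lower, where 61.8% of all genes tested passed it. RPB2, the second largest subunit, read 5489.7, 6204 and 6269 units in thp1Δ, against 4047, 4294 and 4194 in BY4742, higher by 0.52 ± 0.07 (limma adjusted p = 2.34e-05). RPB9, a small subunit with a part in start site choice and fidelity, read 1312, 1195 and 1178 units in thp1Δ and 1806, 1818 and 1652 in BY4742. It fell by 0.52 on the log2 scale (SE 0.08, limma adjusted p = 0.000104), so that these subunits of 1 enzyme had opposite signs.

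In thp1Δ the arrays did not overlap with BY4742 for 22 higher and 13 lower of the 45 genes, where 42.9% of all genes were higher in this way and 33.5% lower. Setting the medians of all arrays equal moved the median gene by -0.15 in thp1Δ and -0.13 in sac3Δ, and with it the all-gene calls in thp1Δ stood at 444 higher and 482 lower, against 631 and 261 as deposited. The members' calls then stood at 6 higher and 3 lower in thp1Δ, with TAF14 and MED8 no longer called and RPB9 called lower, and the median over the 45 genes was -0.02, beside -0.10 over all genes. MED8 was no longer called without thp1Δ replicate 3, MED11 without BY4742 replicate 1 or 2 or thp1Δ replicate 2, and SRB2 without BY4742 replicate 2 or thp1Δ replicate 2. Without BY4742 replicate 2, MED8 was the 1 gene called lower. Leaving out any 1 BY4742 array let TAF7 pass the filter, and it was then called higher. SRB8 was called lower without thp1Δ replicate 2. TAF2 was not called by the methods' test after Benjamini-Hochberg adjustment.

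Genes on chromosome XVI were higher in thp1Δ as a whole, with 71.1% of the chromosome's tested genes called higher against 10.0% of those elsewhere. All 5 members there passed the adjusted p, with a median of 0.77 beside 0.87 over the chromosome, and 4 of them were called. The 40 members on other chromosomes had a median of 0.07, beside 0.01 over all genes there, and 3 were called higher (TAF1, TAF2 and TFB3) and 3 lower, where 6.65% of all genes there were called lower. Set against the chromosome's own median, TAF3 lay 0.10 above it, and MED1, TFB4, TAF14 and TFB2 lay at -0.01, -0.10, -0.16 and -0.39. With the chromosome medians set equal, 3 members were called higher, TAF1, TAF2 and TFB3, and SRB2 was no longer called lower. The part of the chromosome in the values of these 5 genes was not tested.

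The sac3Δ cells showed 4 of the same changes. TAF1, TAF3, TFB3 and TFB4 were called higher, by 1.54-fold to 1.69-fold, and each was also called in thp1Δ. Here 4 of 42 genes tested were called higher, against 8.84% of all genes, and 0 lower, against 3.25%, and 5 passed the adjusted p as lower without the fold minimum. The share called higher was thus close to that of all genes. The methods' test, on unadjusted p-values, called 4 higher and 0 lower. The median was 0.20 over the 45 genes and 0.03 over all genes.

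TAF1 read 2207, 2233 and 1744 units in sac3Δ, against 1322, 1273 and 1067 in BY4741, a log2 fold change of 0.75 ± 0.11 (limma adjusted p = 0.00016). Replicate 3 of sac3Δ was the lowest of its strain and still above every BY4741 array. TAF3 read 1833, 1810.5 and 1576 units in sac3Δ and 1063, 917 and 1151 in BY4741, higher by 0.74 ± 0.08 (limma adjusted p = 1.96e-05). TFB3 read 1611, 1621 and 1291 units in sac3Δ, against 947, 991 and 959 in BY4741, with a log2 fold change of 0.64 ± 0.08 (limma adjusted p = 5.16e-05). TFB4 read 1619.8, 1686 and 1618 units in sac3Δ and 1142, 1147 and 927 in BY4741, higher by 0.62 ± 0.08 (limma adjusted p = 4.31e-05). For these 4 genes no sac3Δ array overlapped with BY4741. TFB3 also differed between the wild types, at 720.5, 772 and 729.6 units in BY4742 against 947, 991 and 959 in BY4741, with a log2 fold change of -0.38 ± 0.08 (limma adjusted p = 0.0203).

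TAF7, not tested, read 1247, 1389.9 and 788 units in sac3Δ, against 476, 391 and 365 in BY4741. Its log2 fold change was 1.44, and without the filter its limma adjusted p was 3.05e-05, where 8.53% of all genes were called higher. Close to the fold minimum lay MED2, the one tail gene of the set, at 0.58 ± 0.11, TAF2 at 0.54 ± 0.09 and SRB2 at -0.57 ± 0.11, with limma adjusted p-values of 0.000889, 0.000562 and 0.00079. SRB2 read 1508, 1310.2 and 1696 units in sac3Δ, against 2134, 2027 and 2543 in BY4741, and MED8 and MED11 had log2 fold changes of -0.36 and -0.33, all 3 past the adjusted p. SRB5 and SRB8 were not tested. SRB5 read 576, 520.4 and 649 units in sac3Δ, against 544, 489 and 693 in BY4741, and its log2 fold change was 0.03. SRB8 read 475, 446 and 408 units in sac3Δ, against 545 and 537 in BY4741, with a log2 fold change of -0.29.

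By complex, TFIID had 2 genes called higher of 14 in sac3Δ with a median of 0.36, TFIIH 2 of 6 with 0.41, and the polymerase 0 of 9 with 0.13. The share called higher over all genes tested was 8.84%. Of the called genes, TAF3 of TFIID and TFB4 of TFIIH lie on chromosome XVI. No complex was tested against the share of all genes. A total of 24 of the 45 genes passed the adjusted p, 19 higher and 5 lower, where 44.7% of all genes did. The arrays of sac3Δ lay above those of BY4741 for 19 members and below for 5, where 25.1% and 20.4% of all genes did so. On chromosome XVI 39.7% of all genes were called higher in sac3Δ, against 6.2% elsewhere, and the 5 members there had a median of 0.46, beside 0.49 for the chromosome.

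Several sac3Δ calls depended on the setting. With array medians set equal, the all-gene calls stood at 267 higher and 257 lower, against 381 and 140 as deposited. TAF1 and TAF3 then stayed called and SRB2 was called lower, with a median of 0.07 over the 45 genes beside -0.10 over all genes. With chromosome medians set equal, TAF1 and TAF2 were called, and TAF3, TFB3 and TFB4 were not. The methods' test called 0 after Benjamini-Hochberg adjustment. Without sac3Δ replicate 3, 7 genes were called higher, with TAF2, TAF11 and MED2 added, and SRB2 lower. TFB3 was not called without sac3Δ replicate 1 or 2, nor TFB4 without BY4741 replicate 3, and SRB2 was called lower also without BY4741 replicate 1 or 2. MED2 was called higher without BY4741 replicate 2. Leaving out any 1 BY4741 array let TAF7 pass the filter, and it was then called higher.

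**Figure D3:**
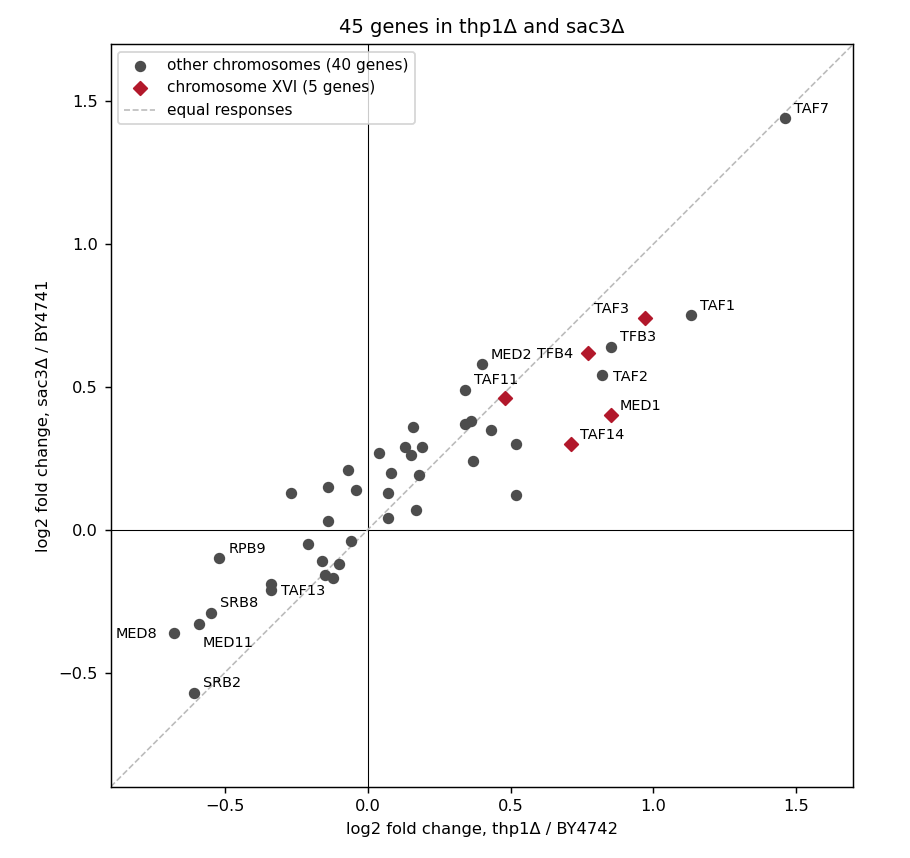
Log2 fold change of the 45 genes in thp1Δ against BY4742 (x axis) and in sac3Δ against BY4741 (y axis), with chromosome XVI genes as diamonds and equal responses on the dashed line. Of the 45 genes, 40 had the same sign in both mutants, where 4151 of all 5449 genes did. The points run from TAF7 at the upper right to SRB2, MED8 and MED11 at the lower left.

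The responses of the 45 genes in thp1Δ and sac3Δ, which share no arrays, went together. Of the 45 genes, 40 had the same sign, and across genes Pearson's r was 0.92 and Spearman's rho 0.90, or 0.92 and 0.88 over the 40 genes outside chromosome XVI. Over all 5449 genes, 4151 had the same sign, r was 0.70 and rho 0.71. No filter on low values was applied to these figures. It would leave 42 of the 45 members and 4183 of all genes. Genes are not independent replicates, and the points share the probe design and the array platform, so these figures are a description. By the limma contrast of both comparisons, 0 of the 42 members tested responded differently in thp1Δ and sac3Δ, where 6.41% of all genes did. A response was taken to differ at a limma adjusted p under 0.05 and a difference of 1.5-fold or more. Without the fold minimum, some members passed, with limma adjusted p-values of 0.00935 to 0.0462. MED1 (0.46), TAF14 (0.42) and TFG1 (0.40) had the higher response in thp1Δ, and RPB9 (-0.42) and RPB10 (-0.40) the lower. The share of all genes that passed without this minimum is not given here.

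In sus1Δ none of the members was called. Of the 44 tested, 0 were higher, against 3.46% of all genes, and 0 lower, against 1.39%, and the methods' test on unadjusted p-values also called 0. The log2 fold changes of all 45 genes ran from -0.33 to 0.36, with a median of -0.02 beside 0.04 over all genes. In total 8 passed the adjusted p without the fold minimum, where 29.3% of all genes did, 2 higher and 6 lower. TFB6, a TFIIH subunit, read 1502, 1399 and 1469.6 units in sus1Δ, against 1143, 1206 and 1153 in BY4742, higher by 0.32 ± 0.06 (limma adjusted p = 0.00127). TAF2 read 1704, 1824 and 1689.8 units in sus1Δ and 1339, 1452 and 1426 in BY4742, higher by 0.31 ± 0.09 (limma adjusted p = 0.0274). RPB9 read 1501, 1334 and 1377 units in sus1Δ, against 1806, 1818 and 1652 in BY4742, lower by -0.33 ± 0.08 (limma adjusted p = 0.00868).

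The arrays of sus1Δ lay above those of BY4742 for 11 members and below them for 12, where 39.7% and 25.2% of all genes did so. TFB6, TAF2 and RPB9 were among them, and 5 others past the adjusted p (RPB7, RPB8, TAF11, MED1 and TFB2) lay between -0.24 and -0.17. TAF7, not tested, read 611, 640.3 and 611 units in sus1Δ, above the 3 BY4742 arrays, a log2 fold change of 0.36. The 5 chromosome XVI members were all below 0 in sus1Δ, with a median of -0.13, beside 0.03 over the chromosome. Between the wild types, 0 of 43 members tested were called higher in BY4742 than in BY4741, against 0.909% of all genes, and 0 lower, against 0.186%. TFB3 was the 1 member past the adjusted p there, where 4.05% of all genes passed it.

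The responses of thp1Δ and sac3Δ were set directly against that of sus1Δ. Since thp1Δ and sus1Δ have the same wild type, their difference is that of the 2 mutants. A total of 8 of the 42 members tested responded differently in thp1Δ and sus1Δ, where 17.2% of all genes did. MED1 (1.07 ± 0.07), TAF1 (1.01 ± 0.11), TAF3 (1.01 ± 0.08), TFB4 (0.90 ± 0.08), TAF14 (0.81 ± 0.06), TFB3 (0.70 ± 0.08) and TFB2 (0.65 ± 0.06) were higher in thp1Δ, and MED8 was lower, at -0.62 ± 0.13, with limma adjusted p-values between 1.48e-07 and 0.00113. TAF2, called in thp1Δ and past the adjusted p in sus1Δ, was not among them. Between sac3Δ and sus1Δ 6 of the 42 members tested differed, where 13.7% of all genes did. They were TAF3 (0.79 ± 0.12), TFB4 (0.75 ± 0.11), TAF11 (0.72 ± 0.11), TAF1 (0.63 ± 0.16), TFB2 (0.63 ± 0.09) and MED1 (0.62 ± 0.10), all higher in sac3Δ, with limma adjusted p-values of 0.000358 to 0.00874. Both shares of the members lay close to those of all genes. The count fell to 4 and 2 in these comparisons with chromosome medians set equal.

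**Figure D4:**
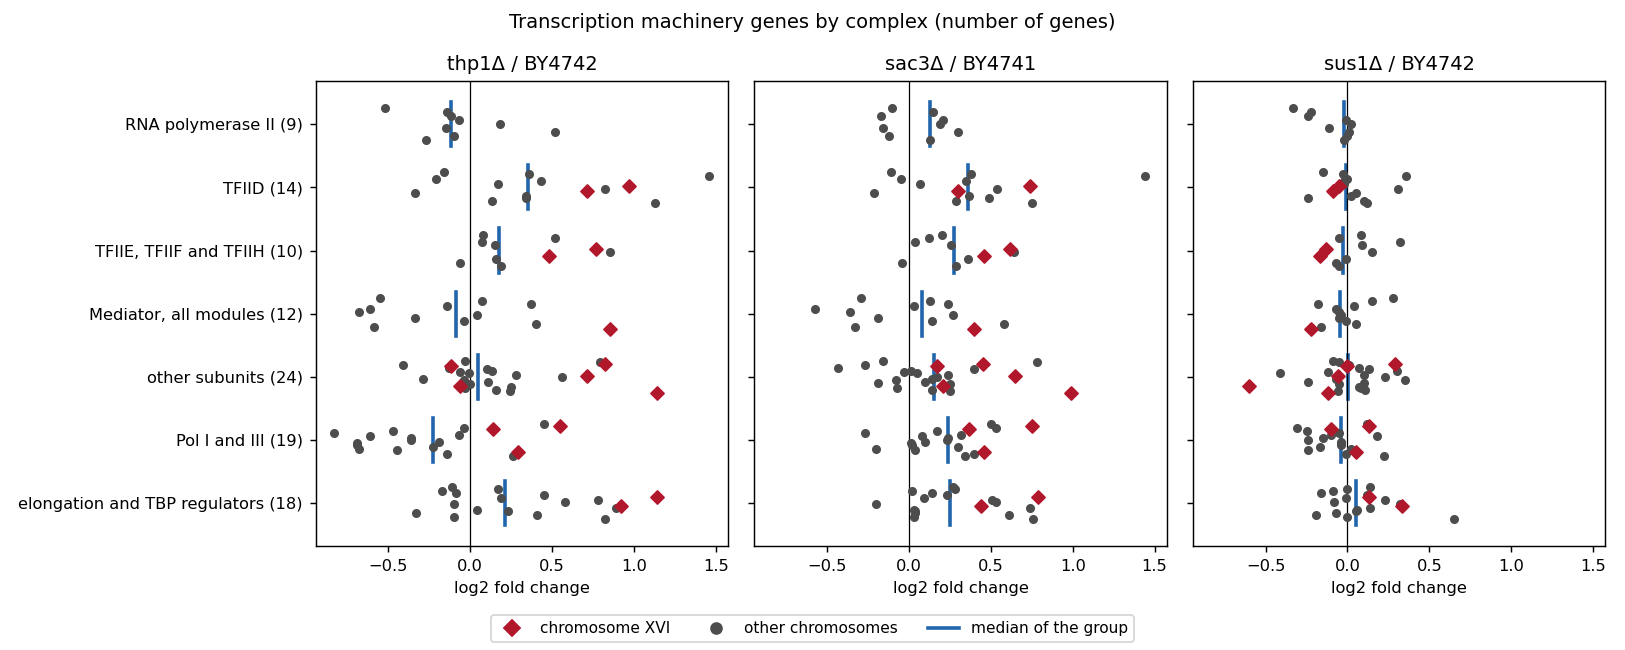
Log2 fold change (x axis) of the genes of each complex or group in thp1Δ, sac3Δ and sus1Δ against their wild types, 1 point per gene, with chromosome XVI genes as diamonds and the group median as a bar. The 19 genes of polymerases I and III have medians of -0.23 in thp1Δ, 0.24 in sac3Δ and -0.04 in sus1Δ.

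Subunits of the same complexes that carry other names were also examined. Of these 24 genes, 22 were tested in thp1Δ, and 4 were called higher, where 14.9% of all genes were, and 0 lower: CCL1, the cyclin of the TFIIH kinase (1.14), SUA7, which is TFIIB (0.82), TOA1 of TFIIA (0.79) and RPO26, a subunit of all 3 polymerases (0.71). CCL1 (0.99), TOA1 (0.78) and RPO26 (0.65) were also called in sac3Δ, and none was called in sus1Δ. CCL1, SUA7 and RPO26 lie on chromosome XVI, where 71.1% of the tested genes were called higher in thp1Δ. Among 18 genes of elongation factors and regulators of the TATA-binding protein, 5 were called higher in thp1Δ, against the same 14.9% of all genes, namely SPN1 (1.14) and MOT1 (0.92) on chromosome XVI, and LEO1 (0.89), BUR6 (0.82) and POB3 (0.78) elsewhere. SPN1 (0.79), BUR6 (0.76) and LEO1 (0.74) were called in sac3Δ, where 8.84% of all genes were called higher. BUR6, a subunit of a repressor of the TATA-binding protein, was the 1 gene of all these lists called in sus1Δ, at 0.65 ± 0.09 (limma adjusted p = 0.000236), with 3898, 4237 and 4125 units in sus1Δ against 2729, 2579 and 2501 in BY4742. It was not called there with array medians set equal.

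Genes of RNA polymerases I and III, which make ribosomal and transfer RNA, were lower in thp1Δ where they were called. In thp1Δ 0 of 19 were called higher, against 14.9% of all genes, and 5 lower, against 6.17%, namely RPC34 (-0.83), RPA49 (-0.69), RPA43 (-0.69), RPA190 (-0.68) and RPC25 (-0.61), none of them on chromosome XVI. With array medians set equal, 7 were called lower. In sac3Δ 1 was called higher, RPC82 (0.75) on chromosome XVI, and 0 lower. The responses of thp1Δ and sac3Δ differed for 6 of the 19 genes (RPA43, RPA49, RPC17, RPC19, RPC25 and RPC37), by -0.70 to -0.59. Among the 42 members tested they differed for 0. The share over all genes was 6.41%. These differences also hold that between the wild types. In BY4742 against BY4741, 18 of the 19 genes lay above 0, with a median of 0.14 and a range of -0.11 to 0.40. The part of the wild types in the differing responses was not tested.

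Longer members tended to have higher values in thp1Δ. The annotated gene length of the 7 members called higher had a median of 1062 bases and that of the 3 called lower 672, beside 957 for the 35 others and 1236 over all genes. Across the 45 genes Spearman's rho between length and log2 fold change was 0.54 in thp1Δ, 0.47 in sac3Δ and 0.28 in sus1Δ, and -0.23 between the wild types. Over all genes it was 0.15, 0.08, 0.08 and -0.14 in the same comparisons. The pair of longest members differed in sign, since SRB8, the longest member at 4284 bases, was at -0.55 in thp1Δ and TAF2, at 4224 bases, at 0.82.

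SRB4, the head subunit Med17, was on the array only as control probe sets and so is not among the 45 genes. Its 3′ set read 2002 ± 158 units in thp1Δ and 1566 ± 42.3 in BY4742 (SD, n = 3), and its 5′ set 178.9 ± 57.6 in thp1Δ and 356.2 ± 21.3 in BY4742. The 3′ set was thus 0.35 higher on the log2 scale in thp1Δ and the 5′ set lower, by -1.05, with the middle set at -0.48, each without overlap. In sac3Δ against BY4741 the 3 sets differed by 0.26, -0.10 and -0.40, and in sus1Δ against BY4742 by 0.12, -0.01 and -0.04, so that no single direction holds for SRB4 in thp1Δ or sac3Δ.

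**Figure D5:**
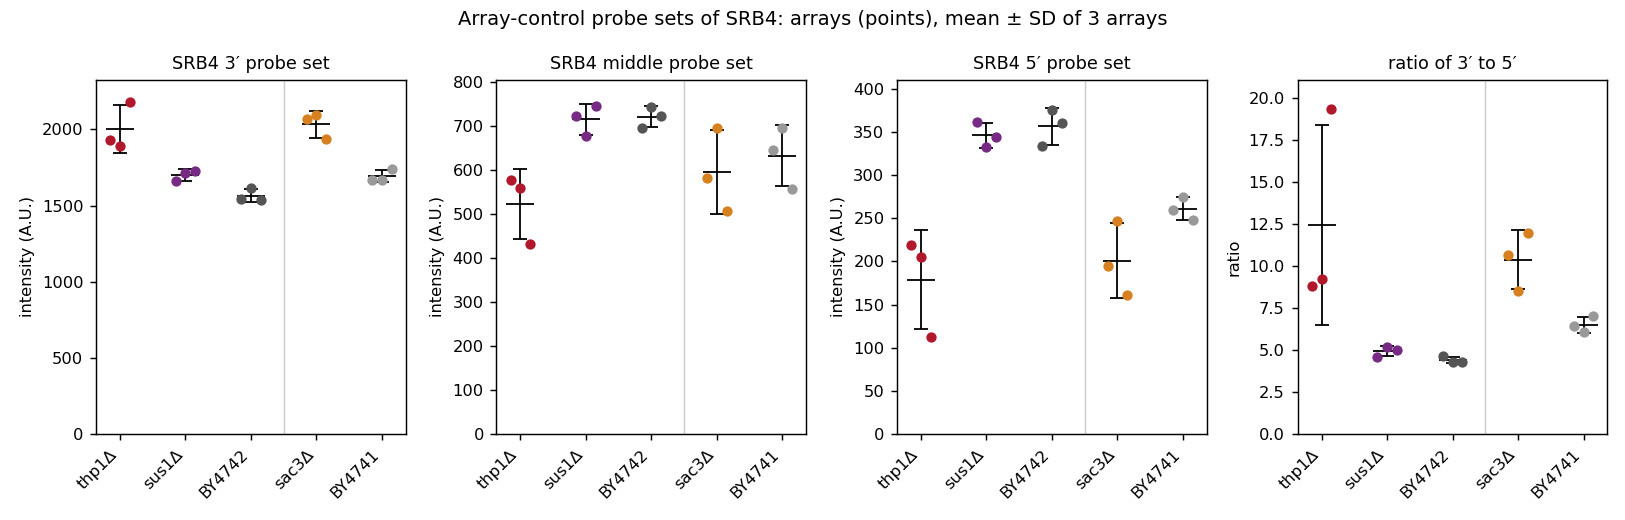
Intensity (arbitrary units) of the 3′, middle and 5′ control probe sets of SRB4 in each array, and their 3′:5′ ratio, with the mean ± SD of 3 arrays. The ratio lies between 8.49 and 19.3 in the thp1Δ and sac3Δ arrays and between 4.28 and 7.01 in all others.

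The 3′:5′ ratio of SRB4, which increases as the RNA or its copy is shortened from the 5′ end, was 8.84 to 19.3 in thp1Δ, 8.49 to 12.0 in sac3Δ and 4.59 to 5.16 in sus1Δ, against 4.28 to 4.63 in BY4742 and 6.09 to 7.01 in BY4741. It was thus highest in the 2 mutants in which members were called. The control sets of SPT15 and ACT1 moved the same way in these mutants. SPT15 had ratios of 2.06 to 2.5 in thp1Δ against 1.74 to 1.86 in BY4742. In sac3Δ they were 1.91 to 2.23, against 1.56 to 1.85 in BY4741. ACT1 had ratios of 1.32 to 1.55 in thp1Δ against 1.18 to 1.24 in BY4742. In sac3Δ they were 1.38 to 1.42, against 1.23 to 1.34 in BY4741. The sus1Δ ratios were 1.81 to 1.93 for SPT15 and 1.16 to 1.24 for ACT1. The part of the ratios in the members' values was not tested. Without thp1Δ replicate 3, the array with the highest ratio, the 7 genes called higher in thp1Δ were still called. MED11 and SRB2 were then called lower, and MED8 was not. The SRB4 ratios of thp1Δ replicates 1 and 2, 8.84 and 9.21, were still above those of BY4742. Leaving out replicate 3 thus cannot separate the ratio from the calls.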

How the data were processed

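The data are 15 Affymetrix yeast arrays, 3 for each of 5 strains. The authors computed the deposited intensity values with dChip, normalising the arrays to an invariant set, fitting a model to the perfect-match probes, and emptying outliers. The unit is linear, in arbitrary units, and the dChip version and genome build are not given in the sources used here. For testing, log2 was taken without further scaling, and empty cells were missing. Of 5900 probe sets, 137 were controls and 5498 had 1 gene through the platform table and RefSeq. A gene with several sets (47 genes) was represented by the brightest, giving 5449 genes.

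The fit held 5 groups and every array (limma 3.58.1, R 4.3.3, prior degrees of freedom 2.88). P-values were adjusted by Benjamini-Hochberg over the genes tested in each comparison. The low-value filter (600 units, 50% of arrays), the fold (1.5) and the difference (100 units) follow the study's methods, whose p-value was unadjusted. The filter can remove a gene that is low in 1 strain and high in the other, so the values of the members it removed are given. The fit was tested on simulated data. Named are all members called in a mutant, up to 3 per comparison past the adjusted p but under the fold minimum, members removed by the filter, called genes of the other lists, and the label checks. Other members with values in the text were chosen after their values were seen. Alternatives comprised array medians set equal, quantile normalisation, no filter, a replicate block, chromosome medians set equal, the mean of probe sets, the 6 arrays alone, the methods' t-test and leaving out each array. The methods' t-test was a Welch t-test on linear values. It stands in for the study's difference p-value from dChip, whose test the paper does not name. Its Benjamini-Hochberg adjustment was added after the data were seen. The members and lists were chosen with earlier results of these data known. Labels give no batch. Sequences were not used here.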

Additional observations from a re-analysis of the deposited data

Results flagged for a closer look

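The log2 responses of 8 of the 42 members tested differed between thp1Δ and sus1Δ by the limma contrast, where 17.2% of all genes did. They were MED1 (1.07), TAF1 (1.01), TAF3 (1.01), TFB4 (0.90), TAF14 (0.81), TFB3 (0.70), TFB2 (0.65) and MED8 (-0.62). The responses of 6 of the 42 differed between sac3Δ and sus1Δ, where 13.7% of all genes did. They were TAF3 (0.79), TFB4 (0.75), TAF11 (0.72), TAF1 (0.63), TFB2 (0.63) and MED1 (0.62). Both shares lay close to those of all genes. Of these genes TAF3, TAF14, TFB2, TFB4 and MED1 lie on chromosome XVI, and TAF11 was called in no single comparison, with 0.49 in sac3Δ and -0.24 in sus1Δ.

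Some signals outside the tested genes were above the wild types and others below. The 3′ control set of SRB4 averaged 2002 units in thp1Δ against 1566 in BY4742, and 2033 in sac3Δ against 1693 in BY4741, each without overlap. TAF7, which the filter on low values removed, averaged 1337 units in thp1Δ against 482.5 in BY4742, and 1141 in sac3Δ against 410.8 in BY4741. The 5′ set of SRB4 was lower, at 178.9 units in thp1Δ against 356.2 in BY4742 and 200.9 in sac3Δ against 260.8 in BY4741, and the middle set averaged 522.7 in thp1Δ against 721.3 in BY4742. SRB8, also removed by the filter, averaged 462.6 units in thp1Δ against 670.0 in BY4742, and SRB5 544.3 in thp1Δ against 598.0 in BY4742.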

How the results depend on the processing

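With chromosome medians set equal, 3 members were called higher in thp1Δ, 2 in sac3Δ (TAF1 and TAF2, with TAF3, TFB3 and TFB4 no longer called), 4 differed between thp1Δ and sus1Δ and 2 between sac3Δ and sus1Δ. In thp1Δ MED1 then lay at -0.00, TFB4 at -0.09 and TAF14 at -0.14, by construction relative to their chromosome. The median of chromosome XVI members became -0.09 in thp1Δ and -0.05 in sac3Δ, and that of the others -0.04 in sus1Δ. With array medians set equal and with quantile normalisation, in that order, the chromosome XVI median was 0.62 and 0.64 in thp1Δ, 0.34 and 0.39 in sac3Δ and -0.20 and -0.21 in sus1Δ, and that of the others -0.08 and -0.07 in thp1Δ and -0.09 and -0.07 in sus1Δ. It was 0.02 in sac3Δ with array medians set equal. Both settings called 2 members higher and 1 lower in sac3Δ, and the methods' t-test after Benjamini-Hochberg adjustment called 0 higher there and no longer TAF2 in thp1Δ. The cause was not tested. Leaving out 1 array gave 7 to 8 members higher and 1 to 3 lower in thp1Δ, 3 to 7 higher and 0 to 1 lower in sac3Δ, and 0 in sus1Δ and between the wild types. Differing responses numbered 8 to 11 between thp1Δ and sus1Δ and 5 to 9 between sac3Δ and sus1Δ, and the median of members on other chromosomes in sus1Δ was -0.02 to 0.01. Whether the replicate numbers pair the arrays is not settled. Across genes, the deviations of same-numbered arrays correlated by -0.089, -0.218 and -0.086 between thp1Δ and BY4742. They correlated by 0.349, 0.072 and 0.357 between sac3Δ and BY4741, and by 0.362, 0.095 and 0.155 between sus1Δ and BY4742. Arrays with different numbers correlated from -0.4 to 0.325 between sac3Δ and BY4741, and from -0.281 to 0.229 between sus1Δ and BY4742. With the numbers as a replicate block, 7 members were called higher and 3 lower in thp1Δ and 4 higher in sac3Δ, as without it. The 3 arrays per strain, the 600-unit minimum and the 5 empty member cells of BY4741 replicate 3 limit what can be seen.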
